A study of Mus musculus with 10 samples.

Results

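Expression of 7 genes that encode homeodomain transcription factors, Shox2, Nkx2-5, Isl1, Prrx1, Meis1, Meis2 and Zfhx3, was described in the mouse left atrium around the pulmonary veins. They were found by symbol among the 54532 genes of the deposited gene table, where each symbol had 1 row, and all 7 passed the filter that left 17752 genes for testing. The study compared 4 control libraries (Ctrl, genotype R26creERT2/creERT2; Tbx5+/+) with 6 libraries of a conditional Tbx5 mutant (CKO, R26creERT2/creERT2; Tbx5 flox/flox). All mice carried 2 copies of a tamoxifen-inducible Cre at the Rosa26 locus, which is active in most cell types and not in muscle alone, received tamoxifen for 3 days at 6 weeks of age and were 7 weeks old when tissue was taken 1 week later. The tissue was the left atrium after removal of the appendage and of most of the veins. The labels do not say that each library came from a separate animal, although the design text counts 4 controls and 6 mutants, so p-values measure the spread between these libraries.

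A sleeve of heart muscle runs from the left atrium onto the pulmonary veins, and ectopic beats that start there can trigger atrial fibrillation. In the developing sinus node and pulmonary vein muscle, Shox2 keeps cells in a pacemaker-like state partly by opposing Nkx2-5, which drives working heart muscle identity, and Isl1, a LIM-homeodomain factor of cardiac progenitors, stays on in the node. Meis1 and Meis2 belong to the TALE class of homeodomain proteins, which bind DNA with HOX and PBX partners, Prrx1 marks mesenchyme and fibroblasts, and Zfhx3 is a very large zinc-finger and homeodomain protein whose human counterpart lies at an atrial fibrillation risk locus. Tbx5, the deleted gene, encodes a T-box factor of the atrium and conduction system.

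The depth and tissue content of the libraries were checked first. Summed counts ran from 8602794 to 10040808 per library. The deletion was visible in exon 3 of Tbx5, whose coverage relative to the median Tbx5 exon was 0.903 to 1.70 in Ctrl and 0.175 to 0.618 in CKO, while whole-gene Tbx5 was 134 ± 31.6 CPM (counts-per-million of the normalised library total; SD, n = 4) in Ctrl and 268 ± 105 (SD, n = 6) in CKO (edgeR adjusted p = 0.101). Summed atrial cardiomyocyte markers were high in every library, with 42890 to 50040 CPM among the Ctrl and 35270 to 54520 among the CKO libraries, but the markers moved apart within that sum. By edgeR the sarcomere genes Tnnt2 and Mybpc3 were called higher in CKO and Myl7, Myl4 and Sln lower, and DESeq2 called 8 of the 10. Over all tested genes edgeR called 2.8%, and DESeq2 called 1094 of 33196 genes. Myl7, the atrial light chain, was 4322 to 7654 CPM in Ctrl and 664 to 1177 CPM in CKO. Summed airway epithelium markers reached 3844 CPM in Ctrl 3, 6239 CPM in CKO 4 and no more than 232 CPM elsewhere. Without both libraries none of the 7 genes was called and the sign turned for Meis2 alone.

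The DNA just before the RefSeq start of 3 genes is shown because Shox2 and Nkx2-5 had the largest differences between atrial regions in opposite directions, and Prrx1 was the gene whose groups did not overlap. The 250 bases before the RefSeq start on GRCm38.p6 (mm10) are given 5′ to 3′ on the gene's strand. Capitals mark every TAAT, the core that many homeodomains bind, on either strand (ATTA is its reverse complement). The windows are chr3:66981772-66982021 for Shox2, chr17:26841566-26841815 for Nkx2-5 and chr1:163313651-163313900 for Prrx1, all on the minus strand. The Prrx1 window overlaps by 60 bases the gene as the deposited files place it, so its last TAAT lies inside that gene, whereas those of Shox2 and Nkx2-5 lie outside theirs.
Shox2: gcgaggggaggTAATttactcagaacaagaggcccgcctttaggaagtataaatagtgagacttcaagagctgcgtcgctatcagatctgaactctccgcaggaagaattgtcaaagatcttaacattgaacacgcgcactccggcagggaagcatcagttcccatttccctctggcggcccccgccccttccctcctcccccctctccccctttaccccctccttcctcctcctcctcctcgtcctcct
Nkx2-5: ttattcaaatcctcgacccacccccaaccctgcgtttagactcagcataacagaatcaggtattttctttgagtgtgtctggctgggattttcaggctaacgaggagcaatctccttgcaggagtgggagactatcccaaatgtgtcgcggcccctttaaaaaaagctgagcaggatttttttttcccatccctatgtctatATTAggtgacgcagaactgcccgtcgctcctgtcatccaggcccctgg
Prrx1: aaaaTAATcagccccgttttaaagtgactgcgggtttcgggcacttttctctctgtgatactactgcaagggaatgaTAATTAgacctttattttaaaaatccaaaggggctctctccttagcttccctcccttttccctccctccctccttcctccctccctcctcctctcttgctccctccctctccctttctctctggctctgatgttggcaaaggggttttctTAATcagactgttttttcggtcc

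The windows of Meis2 and Zfhx3 lay wholly inside the gene as the files place it. TAAT was present on either strand in 5 of the 7 windows, as in 54.9% of 32851 RefSeq promoter windows of this length, and was not found in those of Meis1 and Zfhx3. The TAATTA palindrome, which overlaps TAAT and fits a pair of homeodomains, was found in Prrx1 alone of the 7, 173 bases before its start, and in 4.84% of all windows. TGACAG, the core of TALE factors such as Meis1 and Meis2, was found 19 bases before the start of Nkx2-5 on the other strand and in 15.9% of all windows. AGGTGT, the half-site of T-box factors such as Tbx5, was in none of the 7 windows on either strand and in 11.8% of all windows. These matches describe letters in a window, not bound sites.

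None of the 7 genes changed past the threshold between CKO and Ctrl around the pulmonary veins. With edgeR's quasi-likelihood test and Benjamini-Hochberg adjustment over all 17752 genes, 0 of 7 had an adjusted p under 0.05, against 497 of all tested genes (2.8%). The unadjusted p was under 0.05 for 1 of the 7, Prrx1, and for 17.0% of all tested genes. DESeq2 called 1 of the 7, again Prrx1, and limma on log2(TPM + 0.1), where TPM (transcripts-per-million) also divides by transcript length, called 0. Over all genes DESeq2 called 1094 of 33196, more than edgeR, and limma 351 of 17752. The log2 fold change of CKO over Ctrl was negative for 5 of the 7 and positive for Prrx1 and Meis2, with a median of -0.115 beside -0.0255 over all tested genes.

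**Figure D1:**
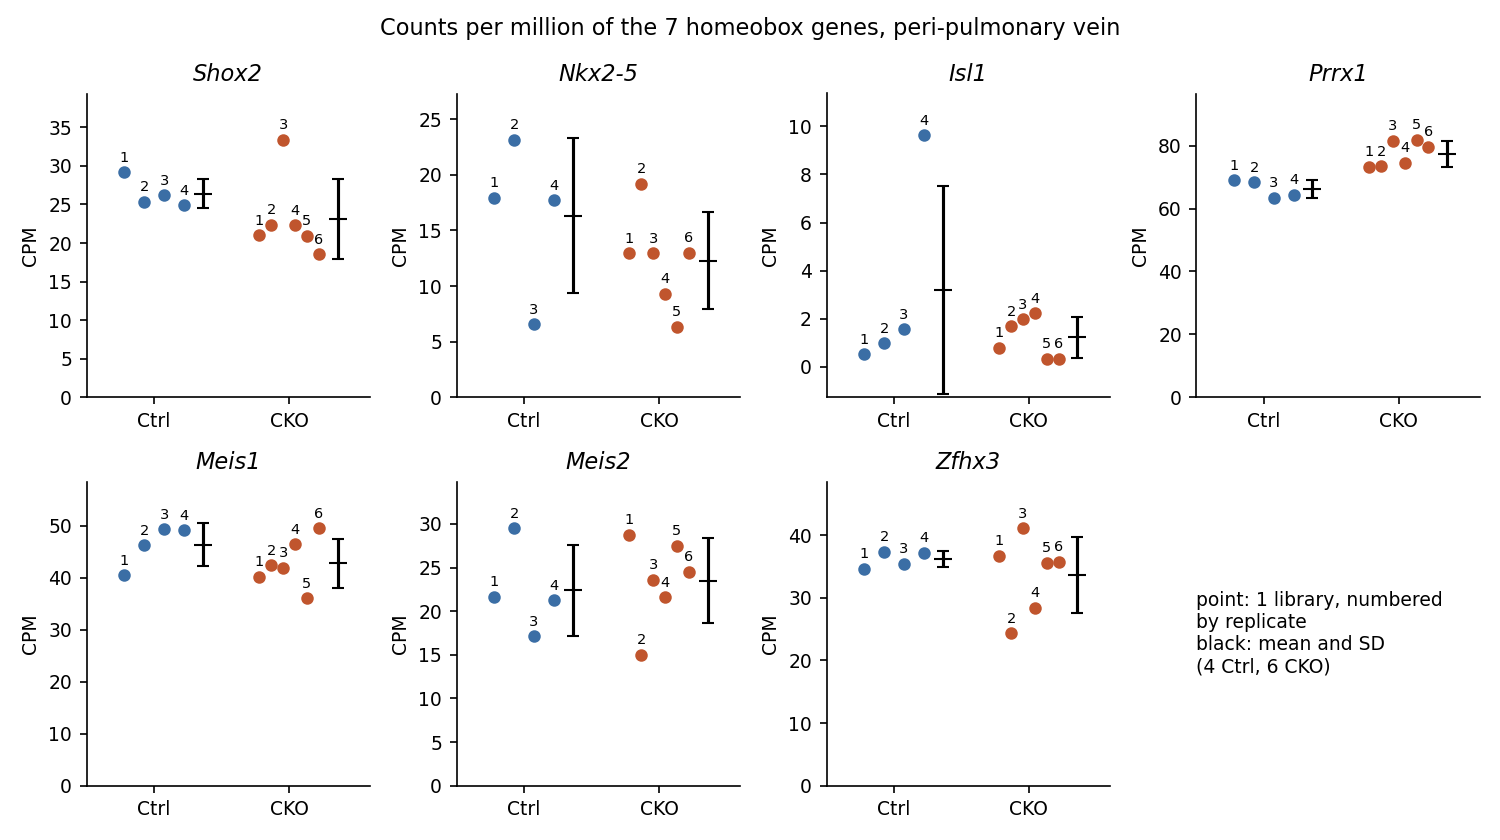
Level in CPM (vertical axes) of the 7 genes in each library of Ctrl (blue, 4 libraries) and CKO (orange, 6 libraries), numbered by replicate, with the mean and SD in black. Prrx1 is the gene whose groups do not overlap (Ctrl at most 69.0, CKO at least 73.3), CKO 3 stands above the other CKO libraries for Shox2 (33.4) and Ctrl 4 above the other Ctrl libraries for Isl1 (9.63).

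Shox2, the homeobox gene that holds back working-muscle identity in the node and the vein sleeve, was present at 29.2, 25.35, 26.2 and 24.9 CPM in Ctrl 1 to 4. In CKO it ran from 18.5 to 33.4 CPM with a median of 21.7. The 4 Ctrl libraries lay close together, 5 of the 6 CKO libraries lay below all of them, and CKO 3 lay above all of them, so the groups overlapped. The means were 26.4 ± 1.91 (SD, n = 4) in Ctrl and 23.1 ± 5.23 (SD, n = 6) in CKO. The log2 fold change was -0.19 (SE 0.153, 95% interval -0.53 to 0.14, edgeR adjusted p = 0.554), so a decrease to 0.693 of the control level lies within the interval. Without CKO 3 the log2 fold change was -0.33 (SE 0.101, edgeR adjusted p = 0.124).

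Nkx2-5, the cardiac muscle factor on the other side of that opposition, was present at 18.0, 23.2, 6.55 and 17.7 CPM in Ctrl 1 to 4. In CKO it ran from 6.33 to 19.2 CPM with a median of 13.0. Ctrl 3 was as low as the lowest CKO library and CKO 2 was above 3 of the 4 Ctrl libraries, so the groups overlapped widely. The log2 fold change was -0.41 (SE 0.343, 95% interval -1.16 to 0.34, edgeR adjusted p = 0.574). It was -0.66 without Ctrl 3 (edgeR adjusted p = 0.204) and -0.19 without Ctrl 2 (edgeR adjusted p = 0.862), and neither passed the threshold. Without Ctrl 3 and CKO 4, the libraries with airway markers, it was -0.59 (edgeR adjusted p = 0.277).

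Nkx2-5 varied from library to library inversely with a marker sum of smooth muscle and pericytes. The summed CPM of 7 smooth muscle and pericyte markers was 1681 in Ctrl 3, 1703 in CKO 4 and 1572 in CKO 5, the 3 libraries with the lowest Nkx2-5, and between 1103 and 1308 in the other 7. Over the 10 libraries, log2 Nkx2-5 and the log2 marker sum had Pearson's r of -0.918 (permutation p = 0.0005, Benjamini-Hochberg adjusted p = 0.0339 over 77 gene and cell type relations) and Spearman's rho of -0.924 (permutation p = 0.00033, adjusted p = 0.0254). Without CKO 4 and Ctrl 3, the libraries farthest in that sum, r was -0.963 over 8 libraries. The contractile smooth muscle genes Myh11, Acta2 and Tagln were higher in those 3 libraries than in the other 7, with Acta2 at 553, 602 and 688 CPM against 240 to 392. Cnn1, another contractile gene of the sum, followed only in part. It was 54.9 CPM in Ctrl 3 and 88.5 CPM in CKO 4, but 29.9 CPM in CKO 5, below Ctrl 4 (30.0) and CKO 2 (33.2). The pericyte genes went the other way or showed no order: Rgs5 was 440, 418 and 425 CPM against 413 to 577, and Abcc9 121, 126.5 and 114 CPM against 122 to 151. Kcnj8 was 16.8, 17.0 and 15.8 CPM, within the 14.8 to 24.5 CPM of the others. None of the 7 smooth muscle markers was called by edgeR, DESeq2 or limma, none had an unadjusted p under 0.05, and the sums overlapped between the groups (1103 to 1681 CPM in Ctrl, 1171 to 1703 in CKO). With the summed atrial cardiomyocyte markers r was 0.724 (permutation p = 0.0186, adjusted p = 0.159), and 0.494 without CKO 4 and CKO 5. The macrophage marker sum was the other one past the threshold for Nkx2-5, with r of -0.836 (permutation p = 0.00285, adjusted p = 0.0488), rho of -0.782 (permutation p = 0.0105, adjusted p = 0.202) and r of -0.745 without CKO 4 and CKO 5. The part of tissue makeup in the Nkx2-5 values was not tested. In such bulk tissue fewer cells of a type and less RNA per cell cannot be told apart.

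Isl1, a progenitor and node factor that is also made by autonomic neurons, was the least abundant of the 7, with 5, 9, 14 and 87 counts in Ctrl 1 to 4, or 0.528, 0.983, 1.56 and 9.63 CPM. In CKO it ran from 0.327 to 2.22 CPM with a median of 1.23. The Ctrl 4 library held more Isl1 than all other libraries, and the other 3 Ctrl libraries lay within the CKO range. The log2 fold change was -1.36 (SE 0.790, 95% interval -3.09 to 0.38, edgeR adjusted p = 0.413), and it changed sign to 0.27 without Ctrl 4 (edgeR adjusted p = 0.915). The interval on the linear scale ran from 0.117 to 1.3 of the control level, so at these counts neither a large decrease nor a small increase could be told from no difference.

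The library that was high in Isl1 was also high in nerve transcripts. The summed CPM of 12 autonomic neuron markers was 265 in Ctrl 4, 38.7 to 63.7 in the other Ctrl libraries and 38.0 to 112 in CKO. Of these markers Th, the rate-limiting enzyme of catecholamine synthesis, was at 3.99 CPM in Ctrl 4 and at 0 in 6 of the other 9. Chat was at 9.19 CPM in Ctrl 4 and at most 1.68 elsewhere, and Slc18a3 at 10.5 CPM and at most 2.94. Dbh and Hand2 were not highest in Ctrl 4, at 21.7 CPM against 21.8 in Ctrl 3 and 11.85 CPM against 33.5 in CKO 1. The type of neuron was not tested. Over the 10 libraries log2 Isl1 and the log2 marker sum had r of 0.915 (permutation p = 0.00088, adjusted p = 0.0339) and rho of 0.794 (permutation p = 0.00862, adjusted p = 0.202), and r was 0.803 without CKO 2 and Ctrl 4. Of the 12 markers 8 were tested, and edgeR called Hand2 higher and Dbh, which makes noradrenaline, lower in CKO. Of all tested genes edgeR called 2.8%. Hand2 is also a heart muscle factor. Ctrl 4 was also the highest library for thymus and lymphocyte markers, at 31.8 CPM against 0.904 to 21.6 CPM, nearly all of it the B cell gene Cd79a. Isl1 had r of 0.773 with that sum (permutation p = 0.00317, adjusted p = 0.0488), rho of 0.758 (permutation p = 0.0159, adjusted p = 0.245) and r of 0.457 without CKO 4 and Ctrl 4, so that relation rests on those libraries. The part of nerve or lymphoid tissue in the Isl1 values was not tested.

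Prrx1, the mesenchymal factor, was the most abundant of the 7 by CPM, with 69.0, 68.3, 63.4 and 64.3 CPM in Ctrl 1 to 4. In CKO it ran from 73.3 to 81.9 CPM with a median of 77.1. Every CKO library was above every Ctrl library, a separation that 5.72% of all tested genes showed in one direction or the other. The log2 fold change was 0.22 (SE 0.0756, 95% interval 0.06 to 0.39, unadjusted p = 0.0126), and the edgeR adjusted p of 0.161 missed the threshold, whereas DESeq2 gave 0.24 with an adjusted p of 0.0228. It was 0.05 (adjusted p = 0.837) by limma on log2(TPM + 0.1), a scale on which the groups overlapped, at 22.9 to 28.2 TPM in Ctrl and 24.4 to 30.2 in CKO.

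The summed endothelial markers separated the groups in the same direction as Prrx1. The summed CPM of 7 endothelium markers was 732 to 956 in Ctrl and 958 to 1167 in CKO, so these sums did not overlap either. The margin was narrow, with Ctrl 1 at 955.5 and CKO 4 at 958. Of the 7 markers 1 separated the groups by itself, Pecam1, at 234 to 317 CPM in Ctrl and 331 to 422 CPM in CKO. EdgeR called 0 of the 7, although 5 had an unadjusted p under 0.05, 4 with higher and 1 with lower values in CKO, DESeq2 called 1 and limma 0. The lower one was the homeobox gene Prox1, at 54.4 to 112 CPM in Ctrl and 30.2 to 64.9 CPM in CKO. Lyve1, on the same list, ran the other way, at 76.3 to 112 CPM in Ctrl and 92.3 to 232 CPM in CKO. Which cells of this bulk tissue made Prox1 was not tested. Summed fibroblast markers, the cells in which Prrx1 is best known, ran from 9715 to 15800 CPM in Ctrl and from 12430 to 19340 in CKO, and edgeR called 0 of 9, with 5 at an unadjusted p under 0.05 (4 higher, 1 lower), 4 called by DESeq2 and 1 by limma. Within that sum Col3a1, a collagen, was 1770 to 3571 CPM in Ctrl and 3863 to 8210 CPM in CKO, while Gsn, which severs actin, was 5275 to 7601 and 3808 to 4996 CPM, so these markers separated the groups in opposite directions. Of 5 macrophage markers, 4 had an unadjusted p under 0.05, all higher in CKO, with 1 called by edgeR (Cd68), 3 by DESeq2 and 1 by limma. Beside these marker counts, 17.0% of all tested genes had an unadjusted p under 0.05 and edgeR called 2.8%. DESeq2 called 1094 of 33196 genes and limma 351 of 17752. The part of endothelial cells, fibroblasts or macrophages in the Prrx1 values was not tested.

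**Figure D2:**
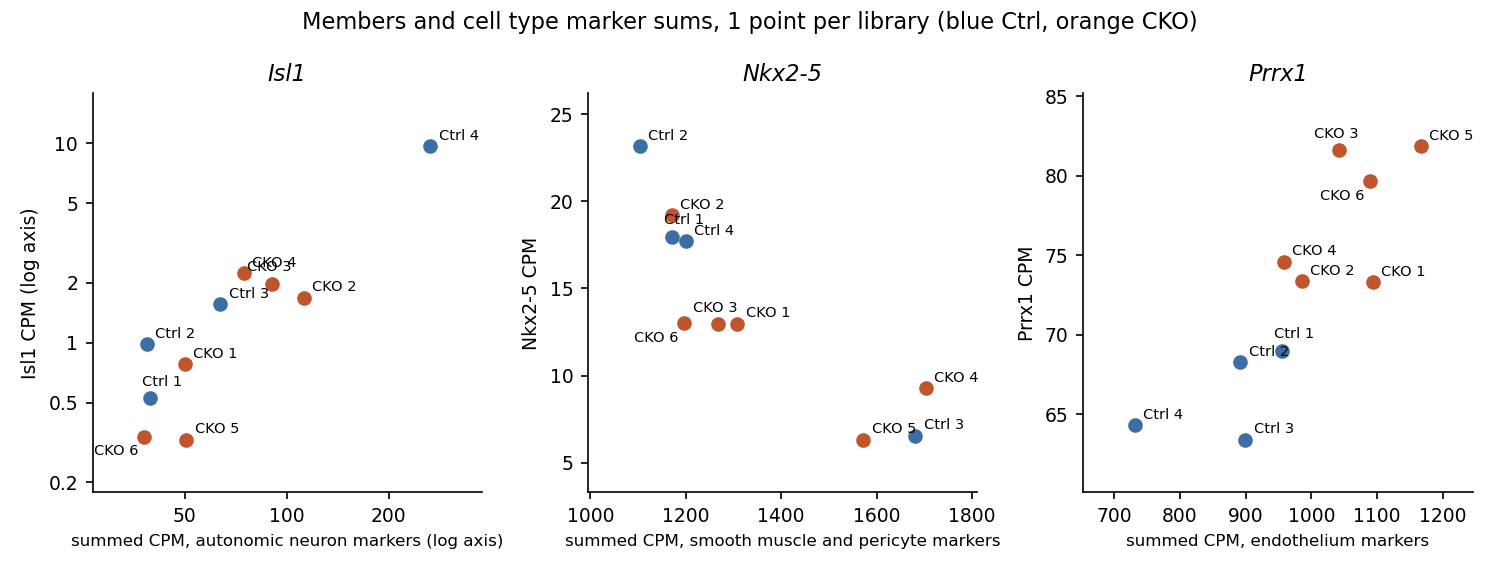
Level of Isl1, Nkx2-5 and Prrx1 (vertical axes, CPM) against the summed CPM of markers of autonomic neurons, of smooth muscle and pericytes and of endothelium (horizontal axes), 1 point per library, with log axes for Isl1. Ctrl 4 is highest on both axes for Isl1 (9.63 and 265 CPM), the 3 libraries lowest in Nkx2-5 have the highest smooth muscle sums, and both Prrx1 and the endothelium sum separate the groups.

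Of the TALE members, Meis1 was present at 40.5, 46.2, 49.3 and 49.2 CPM in Ctrl 1 to 4, and from 36.0 to 49.5 CPM in CKO with a median of 42.2. The groups overlapped over most of their range. Meis1 had a log2 fold change of -0.11 (SE 0.104, 95% interval -0.34 to 0.11, edgeR adjusted p = 0.605). Meis2 was present at 21.7, 29.5, 17.1 and 21.3 CPM in Ctrl 1 to 4, and from 15.0 to 28.8 CPM in CKO with a median of 24.1. Both groups again covered the same range. For Meis2 the log2 fold change was 0.07 (SE 0.193, 95% interval -0.35 to 0.49, edgeR adjusted p = 0.883).

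The direction for Meis2 depended on the scale. In TPM Meis2 was 23.0, 24.6, 16.4 and 23.9 in Ctrl 1 to 4 and 6.97 to 17.4 in CKO, with a median of 16.5. On that scale 3 of the 4 Ctrl libraries were above all CKO libraries, while Ctrl 3 lay among them, and limma on log2(TPM + 0.1) gave -0.59 (adjusted p = 0.281). The median of all tested genes was -0.172 on that scale. The sign for Meis2 also turned in the edgeR fits without Ctrl 3 (-0.03), without Ctrl 3 and CKO 4 together (-0.00054) and over the 8 libraries whose replicate numbers occur in both groups (-0.0093).

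Zfhx3 was present at 34.65, 37.4, 35.4 and 37.2 CPM in Ctrl 1 to 4, and from 24.4 to 41.1 CPM in CKO with a median of 35.6. The 4 Ctrl libraries lay within a narrow band, and CKO 2 and CKO 4 lay below it while CKO 3 lay above it. Its log2 fold change was -0.10 (SE 0.136, 95% interval -0.40 to 0.19, edgeR adjusted p = 0.731).

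Levels of different genes were compared in TPM. In Ctrl, Prrx1, Nkx2-5, Meis1, Shox2 and Meis2 had medians between 23.5 and 27.6 TPM, in that order, and each overlapped the next. Zfhx3 followed at a median of 4.51 TPM (3.81 to 5.68), below all values of Meis2, and overlapped Isl1, whose median was 1.01 TPM with Ctrl 4 at 17.4. In CKO the order of medians was Prrx1 at 28.1, Meis1 at 23.4, Meis2 at 16.5, Nkx2-5 at 15.8 and Shox2 at 15.6 TPM, each overlapping its neighbour, and then Zfhx3 at 3.77 and Isl1 at 0.89, which did not overlap their neighbours. TPM depends on which transcripts the reads were assigned to. Counted as CPM per kilobase of all annotated exons of the gene, the Ctrl order was Nkx2-5 (median 11.7), Shox2 (7.785), Prrx1 (5.99), Meis1 (4.53), Meis2 (1.78), Zfhx3 (1.73) and Isl1 (0.321).

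Most of the listed genes differed between regions of the atrium. The authors' deposited table compares the vein region with the appendage, using appendage libraries that were not analysed here, and lists 6 of the 7 genes, all but Isl1. It gives no model and does not say whether controls alone entered. Of the 6 in the authors' deposited table, 5 had a false discovery rate under 0.05 for region, against 12.2% of its 13646 genes. Shox2 had a log2 fold change of 4.62 for vein region over appendage in the authors' deposited table (false discovery rate 1.59e-40), a 24.6-fold difference and the 70th highest of the table. Zfhx3 (0.73, false discovery rate 0.00241) and Prrx1 (0.48, 0.0387) were also higher in the vein region in the authors' deposited table. Nkx2-5 was lower there, at -1.31 (0.000187), the 128th lowest value, as was Meis2 at -0.66 (0.0131), and Meis1 at 0.02 (0.972) did not pass, all in the authors' deposited table. Airway genes were also higher in the vein region by that contrast, with Scgb1a1 at 13.82 and Bpifa1 at 15.18. The part of tissue makeup in these regional values was not tested.

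The direction of that contrast was read from the levels of all 13646 genes of the authors' deposited table. Taken as vein region over appendage, its fold changes and the Ctrl levels here imply appendage levels that add up to 1050000 CPM, close to a whole library, and with the sign turned to 35200000 CPM. Without Ctrl 3, the Ctrl library with airway markers, the sums were 1060000 and 13600000 CPM.

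Loss of Tbx5 was also compared in the appendage. Of the 6 genes in the authors' deposited table, 2 had a false discovery rate under 0.05 for CKO over Ctrl in the appendage, against 34.7% of its genes. They were Prrx1 at 0.49 (false discovery rate 0.0112) and Meis1 at -0.35 (0.0474). In the authors' deposited table Zfhx3 was at 0.55 (0.0607), Nkx2-5 at -0.39 (0.0558), Shox2 at 0.61 (0.409) and Meis2 at -0.09 (0.691) in the appendage, none past that threshold. For the vein region the same table called 0 of the 6 against 5.5% of its genes, with -0.21 for Shox2, -0.43 for Nkx2-5, 0.21 for Prrx1, -0.13 for Meis1, 0.05 for Meis2 and -0.12 for Zfhx3. The difference between appendage and vein region in the response to Tbx5 loss was not tested, and the region contrast may share control libraries with both.

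**Figure D3:**
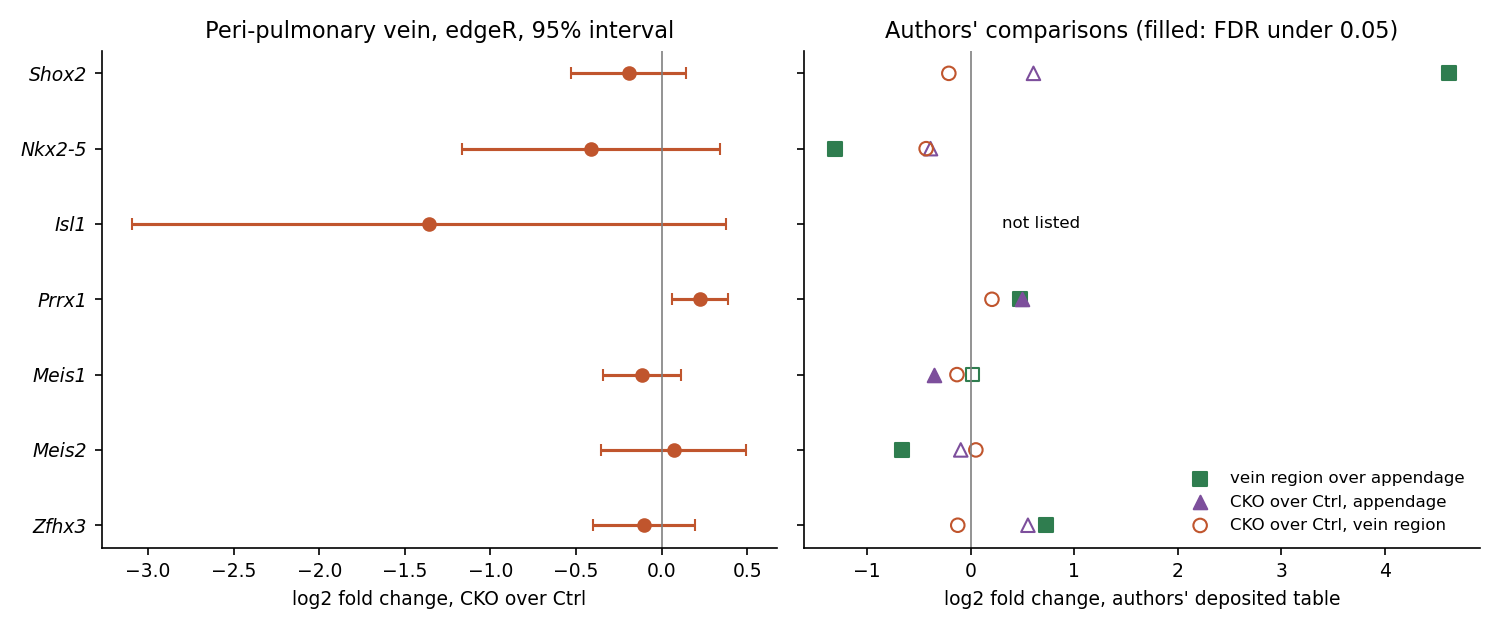
Left, log2 fold change of CKO over Ctrl around the pulmonary veins with its 95% interval (edgeR, 4 Ctrl and 6 CKO libraries), 1 row per gene. Right, log2 fold changes of the authors' deposited table for region and for CKO in each region, filled where the false discovery rate is under 0.05 and without error bars because the table gives none. Shox2 lies at 4.62 and Nkx2-5 at -1.31 for region, and no CKO value of the vein region is filled.

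The transcripts of Shox2 showed a pattern that the gene total did not. The gene lies on chromosome 3 (mm10, 66971727 to 66981771, minus strand), and reads were assigned to 5 coding transcripts. Shox2-202, a shorter form of 4 exons that lacks exon 1 and the end of the last exon, took 48.6%, 52.3%, 49.0% and 50.9% of Shox2 TPM in Ctrl 1 to 4. In CKO its share was 26.9%, 46.8%, 31.8%, 19.7%, 19.4% and 0% in CKO 1 to 6. All CKO shares were below all Ctrl shares, with CKO 2 close to Ctrl 1. Its TPM overlapped between the groups, at 11.3 to 13.9 in Ctrl and 0 to 13.0 in CKO. The rest went mostly to Shox2-201 or Shox2-203, which start at different points of exon 1, with no order by group, and in CKO 3 in part to other transcripts. Among 16 transcripts of these genes with a mean share of 10% to 90%, this was the 1 whose groups did not overlap, against 1.22% of 25980 such transcripts of all tested genes. It was singled out after its values were seen and carries no test.

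Exon coverage showed where the reads lay. In the part of the last exon (exon 5) that Shox2-202 also covers (66972780 to 66973907), coverage per 10000000 counts was 6.98, 5.42, 6.19 and 5.92 in Ctrl 1 to 4 and 3.92 to 7.54 in CKO with a median of 4.63. In this stretch 5 CKO libraries were below all Ctrl libraries and CKO 3 was above them. In the end of that exon (66971782 to 66972779), which Shox2-202 lacks, the groups covered the same range, 3.41 to 4.22 in Ctrl and 3.14 to 4.55 in CKO. Exon 1 (66981211 to 66981771), at which Shox2-201 starts and which adjoins the promoter sequence above, had 0.188 to 0.393 in Ctrl and 0 to 0.933 in CKO, against 3.23 to 4.59 and 2.09 to 7.22 in exon 2. Shox2 overlaps the opposite-strand gene Rsrc1 by 382 bases, and reads there cannot be told apart without strand. The file headers record a stranded setting for the transcript assembly although the kit named in the labels marks no strand, and the effect of that setting on the shares and TPM was not tested.

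**Figure D4:**
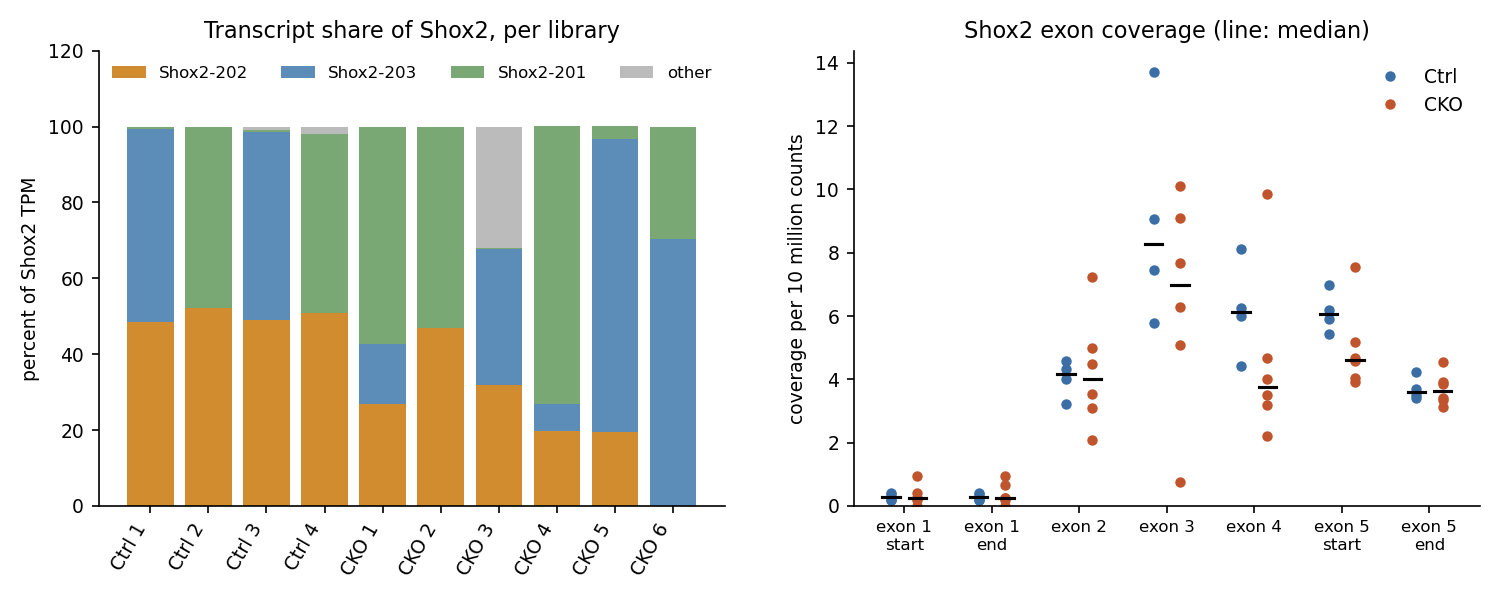
Left, percent of Shox2 TPM assigned to each transcript in each library (bars add up to the whole). Right, coverage of Shox2 segments per 10000000 counts in order from exon 1 to the end of exon 5, 1 point per library with the group median as a line. The Shox2-202 share is 48.6% to 52.3% in Ctrl and at most 46.8% in CKO, and exon 1 is covered at under 1 in all libraries.

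The other genes differed in how stable their transcript assignment was. Nkx2-5 (chromosome 17, 26838664 to 26841565, minus strand) has 1 transcript in the files, so its TPM follows its counts. For Zfhx3 (chromosome 8, 107942644 to 108961630, plus strand) nearly all TPM went to 1 of 2 long coding transcripts, Zfhx3-204 at 92.0% to 100% in Ctrl 1, Ctrl 2, Ctrl 3, CKO 3 and CKO 6, and Zfhx3-201 at 89.1% to 100% in the other 5 libraries. That split did not follow the groups. Prrx1 (chromosome 1, 163245119 to 163313710, minus strand) was divided among 3 coding transcripts, with Prrx1-201 at 30.1% to 78.4% in Ctrl and 33.4% to 49.3% in CKO and Prrx1-202 at 1.25% to 42.2% and 25.4% to 41.7%. Both shares overlapped between the groups.

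In the TALE genes part of the signal lay outside coding transcripts, and that part was larger for Meis2 than for Meis1 in every library. Coding transcripts held 71.1% to 85.7% of Meis1 TPM in Ctrl and 75.8% to 85.8% in CKO, led by Meis1-201, and the retained-intron transcript Meis1-204 held 10.4% to 22.6% and 11.8% to 18.6%. For Meis2, with 14 of 19 transcripts above 0, the coding share was 10.5% to 57.8% in Ctrl and 45.3% to 81.2% in CKO. The coding TPM of Meis2 overlapped between the groups, at 1.72 to 14.2 in Ctrl and 5.66 to 10.5 in CKO, and their medians were 6.76 and 7.88. For Isl1 the coding share ran from 30.2% to 100% in Ctrl and from 0% to 100% in CKO, on the few counts given above. Meis1 and Meis2 lie on chromosome 11 (18879817 to 19018985) and chromosome 2 (115863064 to 116065839), and Isl1 on chromosome 13 (116298281 to 116309689), all on the minus strand.

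Other homeobox genes were examined from lists set beside the 7. The counts called below stand beside 2.8% called by edgeR over all tested genes, and lists this small say little about their class. Of 16 other TALE genes, among them the PBX partners of Meis proteins, 7 were tested and 1 was called, Pknox2, a Meis-related factor, at 12.3 ± 2.56 CPM (SD, n = 4) in Ctrl and 21.0 ± 3.60 (SD, n = 6) in CKO, a log2 fold change of 0.77 (SE 0.172, edgeR adjusted p = 0.0394). That call was kept in 1 of the 10 fits that left out a library, the one without CKO 4 (edgeR adjusted p 0.0287 to 0.112 over the 10), and was lost without Ctrl 3 and CKO 4 together (0.0592). Of 51 other homeobox genes of heart and vessels 31 were tested, with 1 called higher and 1 lower and a median log2 fold change of -0.24 beside -0.03 over all tested genes. Meox1, a homeobox gene of mesoderm and activated fibroblasts, was 33.0 ± 7.36 CPM in Ctrl and 60.7 ± 15.3 in CKO (log2 fold change 0.88, SE 0.205, edgeR adjusted p = 0.0464). Cux2, a cut-class homeobox factor, was 9.04 ± 3.96 CPM in Ctrl and 3.09 ± 1.23 in CKO (log2 fold change -1.55, SE 0.355, edgeR adjusted p = 0.0433). Of the 10 fits that left out a library, Meox1 was called in 2 (without CKO 3, without CKO 4, edgeR adjusted p 0.0314 to 0.14 over the 10) and Cux2 in 1 (without CKO 3, 0.0392 to 0.144). For CKO in the appendage the authors' deposited table gives the same directions. Pknox2 was at 1.29 (false discovery rate 7.67e-08), Meox1 at 1.79 (1.65e-10) and Cux2 at -1.17 (0.00298), where 34.7% of its genes passed.

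Some genes of a list drawn up for node and pulmonary vein were lower in CKO. Of 33 listed genes, 32 were tested and 9 were called, all lower in CKO, with a median log2 fold change of -0.58. Among all tested genes 2.8% were called. The list was chosen with earlier results of these data known, so its count is not a test of that class of genes. The list holds Tbx5 itself, and 16 of the 32 had an unadjusted p under 0.05, against 17.0% of all tested genes. Cntn2, a cell adhesion protein of conduction cells, fell from 89.1 ± 33.9 CPM (SD, n = 4) to 4.03 ± 1.46 (SD, n = 6), a log2 fold change of -4.46 (SE 0.332, edgeR adjusted p = 8.82e-05). Cpne5, a calcium-dependent membrane-binding protein, fell by 4.004 on the log2 scale (SE 0.313, edgeR adjusted p = 8.82e-05). Gja5, the gap junction protein connexin 40, fell by 3.42 (SE 0.426, edgeR adjusted p = 0.00232), and Kcnj5, a subunit of the acetylcholine-gated potassium channel, fell by 1.89 (SE 0.244, edgeR adjusted p = 0.00252). These 4 calls were kept in each of the 10 fits that left out a library. The atrial muscle markers Myl7, Myl4 and Sln, which are not on that list, were lower in CKO as well. Tnnt2 and Mybpc3, heart muscle markers also not on it, were higher. By the authors' deposited table, 10 of the 32 were higher and 4 lower in the vein region than in the appendage. There Cntn2 (log2 fold change 7.16, false discovery rate 3.64e-67) and Cpne5 (2.72, 1.27e-05) were higher in the vein region. Gja5 was lower there (-1.69, 6.19e-15) and Kcnj5 did not pass (0.031, 0.96), so the list is not made of vein-enriched genes alone.

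**Figure D5:**
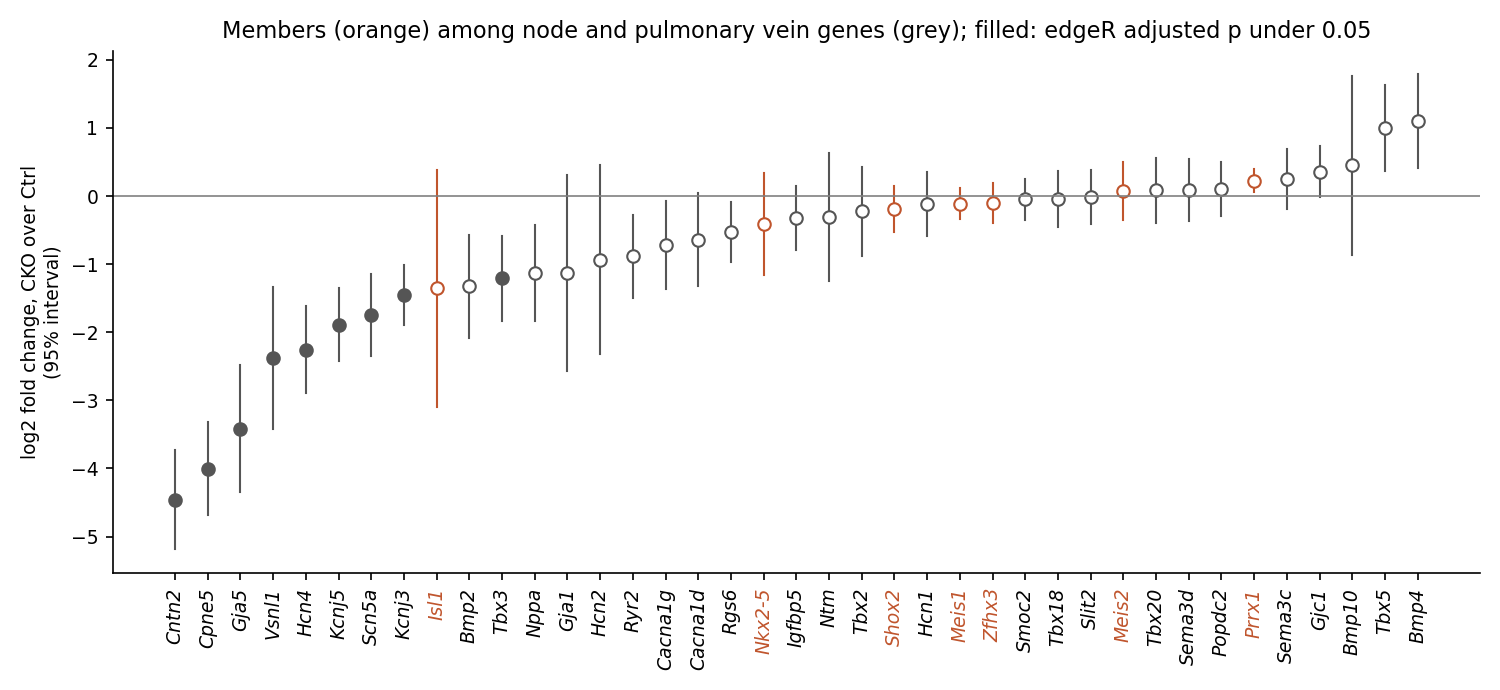
Log2 fold change of CKO over Ctrl (vertical axis) with its 95% interval for the 7 homeobox genes (orange) and 32 node and pulmonary vein genes (grey), in order of size, filled where the edgeR adjusted p is under 0.05. The 9 filled genes are all below 0 and none of the 7 homeobox genes is filled, with Shox2 at -0.19 and Isl1 at -1.36 with the widest interval among the 7.

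The 7 genes did not vary together from library to library. Among their 21 pairs the highest Pearson's r of log2 CPM over the 10 libraries was 0.641, between Meis2 and Zfhx3, and Shox2 and Nkx2-5 had 0.201. These values, and those below, describe 10 libraries that share a tissue and differ in depth and makeup, and none carries a test. Among 13693 other genes with a mean of at least 1 CPM, the ones most like Nkx2-5 were Prkar2a (r 0.976), a regulatory subunit of protein kinase A, and the kinase gene Dyrk2 (0.956), and 421 genes had an r of at least 0.8. Those most like Isl1 were Dpp6 (0.966) and Unc80 (0.965), which encode partners of neuronal potassium and sodium-leak channels. Those most like Prrx1 were Pappa (0.933) and Siglec1 (0.918), a macrophage receptor gene. Siglec1 had a mean of 17.7 CPM in Ctrl and 46.4 CPM in CKO. For deviations from the group means r with Prrx1 was 0.849 for Pappa and 0.612 for Siglec1, so part of the likeness to Siglec1 is a shared difference between groups.

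Fewer genes reached an r of 0.8 with the other 4. The genes named for each are the highest of 13693 correlations over 10 libraries. With so many genes and so few libraries, values this high can arise by chance, so they do not establish a likeness. Shox2 was most like Zfp839 (0.917) and Dhx37 (0.895), with 32 genes at 0.8 or above. Meis1 was most like Btbd16 (0.934) and Rbbp5 (0.897), and Meis2 most like Mdfic (0.876) and Rrbp1 (0.851). Without CKO 2 and Ctrl 3 these values for Meis2 were 0.666 and 0.691. Zfhx3 was most like Nek7 (0.927) and Cab39 (0.914), but its r with Nek7 was 0.452 without CKO 2 and CKO 4.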

How the data were processed

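Bulk RNA of 10 mouse peri-pulmonary vein libraries (4 Ctrl, 6 CKO) was measured. Per the file headers and the submitters' processing notes, the authors aligned reads with TopHat2 2.1.1 to mm10 and ran StringTie 1.3.3 on Ensembl release 94 annotation without new transcripts. The deposited gene table holds estimated counts in whole numbers, unscaled, and the deposited transcript files hold coverage and TPM per transcript. The authors' deposited table of comparisons gives log2 fold changes, p-values and false discovery rates, and the submitters' processing notes name edgeR 3.18.1 and limma 3.32.10 without stating the model. Its fold changes for CKO in the vein region had the same sign as those computed here for 97.1% of 13628 shared genes. The gene table has 10 further columns of other libraries, not used here.

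Counts were filtered (filterByExpr), TMM-scaled and tested with edgeR 4.0.16 (quasi-likelihood, genotype only, Benjamini-Hochberg over 17752 genes, threshold 0.05) in R 4.3.3. Alternatives were DESeq2 1.42.0, limma 3.58.1 on log2(TPM + 0.1), other scaling, no filter, a replicate block, Xist as covariate and left-out libraries. Code was tested on simulated data. CPM uses TMM-scaled library totals, and log2 CPM for correlations a prior count of 2. Permutation p-values used 100000 resamples, two-sided. Promoters are RefSeq (GRCm38.p6), matched by symbol for 7 of 7 genes. The labels' kit does not mark strand, while per the file headers StringTie ran with a stranded setting. Named genes were the 7, Tbx5, up to 4 called genes per list by adjusted p (if none, the 2 most abundant), and the 2 genes most like each of the 7. Other genes named (single markers) were chosen after their values were seen. The members and lists were chosen with earlier results of these data known.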

Additional observations from a re-analysis of the deposited data

Results flagged for a closer look

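In 2 of the 14 groups of values screened (7 genes, Ctrl and CKO), 1 library stood apart from the others of its group by Dixon's gap test at the 95% level, which flags about 1 in 20 groups by chance. Shox2 was at 33.39 CPM in CKO 3, above the 18.5 to 22.4 CPM of the other CKO libraries. Isl1 was at 9.634 CPM in Ctrl 4, above the 0.528 to 1.56 CPM of the other Ctrl libraries.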

How the results depend on the processing

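Over 19 alternatives each, the log2 fold changes of Shox2, Nkx2-5, Prrx1, Meis1 and Zfhx3 kept their sign in 19, that of Isl1 in 18 and that of Meis2 in 14. Isl1 turned to 0.27 without Ctrl 4, and without other single libraries it was as low as -1.71. Meis2 turned to -0.59 with limma on TPM, -0.027 without Ctrl 3 (highest 0.24 without 1 library) and -0.00054 without Ctrl 3 and CKO 4. With DESeq2 1 of the 7 was called (Prrx1, 0.24, adjusted p = 0.0228), with 14 node and vein genes (2 higher, 12 lower) and 1094 genes in all, against 0, 9 and 497. Leaving out 1 library gave 190 to 607 genes, with 221, 190, 237, 305 and 331 without Ctrl 1, Ctrl 2, Ctrl 4, CKO 1 and CKO 2, and 7 to 11 node and vein genes. Library size scaling gave 227 higher and 288 lower, TPM 168 and 183, against 274 and 223. TPM moved the median of all genes from -0.0255 to -0.172. The causes were not tested. Isl1 counts limit its precision.

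Replicate numbers did not pair the libraries: deviations of same-numbered libraries correlated at 0.0313, 0.0876, -0.319 and 0.0894. With the replicate block, 51 genes and 4 node and vein genes were called and Meis2 was -0.013. The same 8 libraries without the block gave 234 genes, and -0.0093 for Meis2. This comparison was added after seeing the data.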

Other observations

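HOX cluster genes, which set position along the body axis and bind with Meis and Pbx proteins, were mostly silent or low. Of 39 listed, 25 were in the table and 7 were tested. None was called by edgeR, DESeq2 or limma, and none had an unadjusted p under 0.05. Of all tested genes edgeR called 2.8%, and 17.0% had an unadjusted p under 0.05. Those with the highest levels were Hoxb2 (log2 fold change 0.39, edgeR adjusted p = 0.503) and Hoxb4 (-0.17, edgeR adjusted p = 0.799).

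Of 22 other cardiac transcription factors that work beside Nkx2-5 and Isl1, 19 were tested and 1 was called by edgeR, against 2.8% of all tested genes. Hand2, a basic helix-loop-helix factor of heart development, rose from 11.1 ± 2.09 CPM (SD, n = 4) to 25.5 ± 7.33 (SD, n = 6), a log2 fold change of 1.20 (SE 0.233, edgeR adjusted p = 0.021). The call was kept in 8 of the 10 fits that left out a library and was lost without Ctrl 1 (edgeR adjusted p = 0.0811) and without Ctrl 4 (edgeR adjusted p = 0.0611). It was also lost with limma on log2(TPM + 0.1) (adjusted p = 0.0569) and with the replicate block (edgeR adjusted p = 0.157, against 0.0418 on the same 8 libraries without it). In the authors' deposited table Hand2 was also higher in CKO in the appendage (log2 fold change 1.28, false discovery rate 1.37e-10).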
